A study of Mus musculus with 6 samples.

Results

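Lyz1 and a set of antimicrobial genes known from Paneth cells were followed through bulk RNA-seq of sorted immune cells of the small bowel muscularis externa (ME), the muscle wall with its nerve plexus. The members were taken by gene symbol from the normalized expression table and were Lyz1, Defa17, Defa24, Defa30, Reg3b, Reg3g, Itln1, Ang4, Mptx2 and Pla2g2a. Of these 10 symbols, 9 were among the 26110 genes listed, and Pla2g2a was not analysed here.

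MHCIIhi cells were sorted by CX3CR1 from untreated CX3CR1GFP/+ mice, in which GFP stands in for 1 allele of Cx3cr1 and marks the cells that use its promoter. All 6 libraries came from this genotype (CX3CR1+/GFP in the labels) and received no treatment, with 3 libraries of CX3CR1- cells and 3 of CX3CR1+ cells. The labels call the cells dendritic cells and the study calls them macrophages. Tissue of 6 mice was pooled for each group and it is not known whether every library had a pool of its own, so the p-values below measure the spread between libraries, which may be technical. The study used Lyz1 as a gene of the monocyte-macrophage lineage that was higher in CX3CR1- cells, and the comparison here asks whether Lyz1 moved with the Paneth cell genes.

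Paneth cells sit at the base of small intestinal crypts, in the mucosa and not in the muscle layer, and secrete granules that hold lysozyme, alpha-defensins and other antimicrobial proteins. The mouse has a pair of neighbouring lysozyme genes. Lyz1 is the lysozyme gene of Paneth cells, although some myeloid cells also carry its RNA, and Lyz2 is that of macrophages, monocytes and granulocytes.

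The libraries held about 5346381 to 17616761 reads, estimated from the smallest step of the normalized values. A value equal to 3 reads, between 1.39 and 5.36 in the 6 libraries, was taken as the level under which nothing can be measured, and a fold against a group at or under it is given as a lower bound. Mitochondrial transcripts took 47.5 to 54.9% of the values in the CX3CR1- libraries and 18.1 to 21.2% in the CX3CR1+ libraries. Of 13 macrophage genes, among them Csf1r and Cx3cr1 itself, 12 were lower in CX3CR1- cells, beside 8.15% of all tested genes. Of 8 conventional dendritic cell genes, 7 were higher there, beside 12.2% of all tested genes. Fewer cells of a type and less RNA per cell cannot be told apart in such bulk samples.

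Lyz1 lies on chromosome 10 (GRCm38, 117287797 to 117292868, minus strand), next to Lyz2 (117277331 to 117282321, minus strand). The coding sequences of both genes were identical at 422 of 444 positions, or 95.0%. The following stretch of 75 coding bases in exon 1, as long as 1 read, shows how a read can tell the genes apart. It was chosen as the coding window within an exon that holds the most differences, so other such windows hold as many or fewer. Capitals mark the 12 positions that differ, and the Lyz1 stretch lies at chr10:117292707-117292781 and the Lyz2 stretch at chr10:117282111-117282185, both read on the minus strand of GRCm38.
Lyz1: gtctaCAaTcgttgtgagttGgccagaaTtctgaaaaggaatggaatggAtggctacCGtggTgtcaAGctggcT
Lyz2: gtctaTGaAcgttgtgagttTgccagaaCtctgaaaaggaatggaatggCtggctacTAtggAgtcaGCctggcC
Over the whole transcripts, 34.2% of the 31-base words of Lyz1 also occurred in Lyz2, and no other gene shared any. A pseudoaligner that works with words of this kind therefore had many distinguishing words for each gene.

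Lyz1 was higher in CX3CR1- than in CX3CR1+ cells. Its normalized values were 3419, 4921 and 1953 in CX3CR1- replicates 1 to 3 and 31.9, 50.04 and 17.0 in CX3CR1+ replicates 1 to 3. The lowest CX3CR1- library thus stood far above the highest CX3CR1+ library, and the lysozyme gene was above the 3-read level in all 6, with about 12 to 3276 reads. In CX3CR1+ replicates 1 to 3, Lyz1 had about 69, 61 and 12 reads, beside about 49463, 30485 and 13480 of Lyz2. Whether some of the Lyz1 reads there were misassigned Lyz2 reads was not tested. The mean was 3431 ± 1484 (SD, n = 3) against 33.0 ± 16.5 (SD, n = 3), a ratio of 104. On the log2(value + 1) scale the difference was 6.68 ± 0.41 (SE), with an adjusted p of 5.01e-06 (limma, Benjamini-Hochberg over 17812 tested genes). An exact two-sided permutation test over the libraries gave p = 0.1, the smallest that 3 against 3 allow.

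Lyz2, the lysozyme of macrophages, did not pass the test in either direction. Its values were 15273, 19826 and 11800 in CX3CR1- cells and 22877, 25006 and 19094 in CX3CR1+ cells. The CX3CR1- libraries tended to the lower side, with CX3CR1- replicate 2 inside the CX3CR1+ range, and the log2 difference was -0.54 ± 0.19 (SE) at an adjusted p of 0.0656 (limma). Per kilobase of transcript, Lyz2 was also the more abundant lysozyme gene in every library, at 8967 to 15065 against 1546 to 3896 for Lyz1 in CX3CR1- cells.

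The share of Lyz1 in the summed values of both genes separated the populations. It was 18.3, 19.9 and 14.2% in CX3CR1- replicates 1 to 3 and 0.139, 0.200 and 0.0889% in CX3CR1+ replicates 1 to 3. In CX3CR1+ cells, which had the higher mean of Lyz2, the Lyz1 value was 0.0890 to 0.200% of that of Lyz2, against 16.5 to 24.8% in CX3CR1- cells. The log2 ratio of Lyz1 to Lyz2 was 7.22 higher in CX3CR1- cells (exact two-sided permutation p = 0.1, the smallest possible here, with no overlap between the groups).

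**Figure D1:**
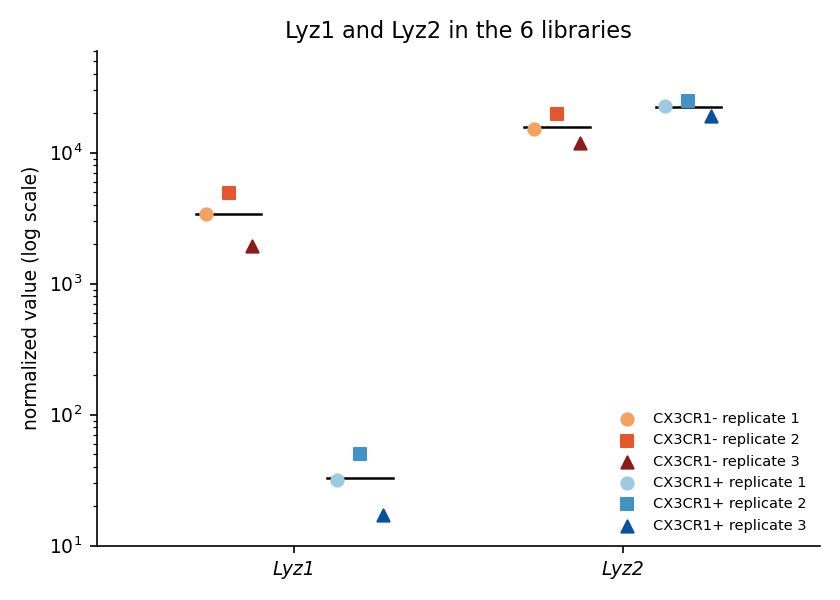
Normalized values of Lyz1 and Lyz2 in each of the 6 libraries on a log axis, with CX3CR1- libraries in red shades, CX3CR1+ libraries in blue shades and a line at each group mean. Lyz1 lies between 1953 and 4921 in CX3CR1- cells and between 17.0 and 50.04 in CX3CR1+ cells, whereas Lyz2 lies between 11800 and 25006 in all libraries.

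Of the 9 members listed, 8 passed the filter on low values, and 5 of these, Lyz1, Reg3b, Reg3g, Itln1 and Defa30, were called higher in CX3CR1- cells, beside 12.2% of all tested genes. To be called, a gene had to reach 1 on the log2 fold scale and an adjusted p no higher than 0.05. In the same 5 members the lowest CX3CR1- library stood above the highest CX3CR1+ library, which held for 20.3% of all tested genes. The 8 members other than Lyz1 were listed at 0 in all CX3CR1+ libraries, so those that passed the filter did so through the CX3CR1- libraries and their number is no support for a direction. For the same reason, their single tests below could differ only toward higher values in CX3CR1- cells, and their p-values are no support for a direction either. Mptx2 did not reach the filter. Without CX3CR1- replicate 3, only 3 members (Lyz1, Reg3b and Reg3g) passed the filter, and all 3 were called.

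**Figure D2:**
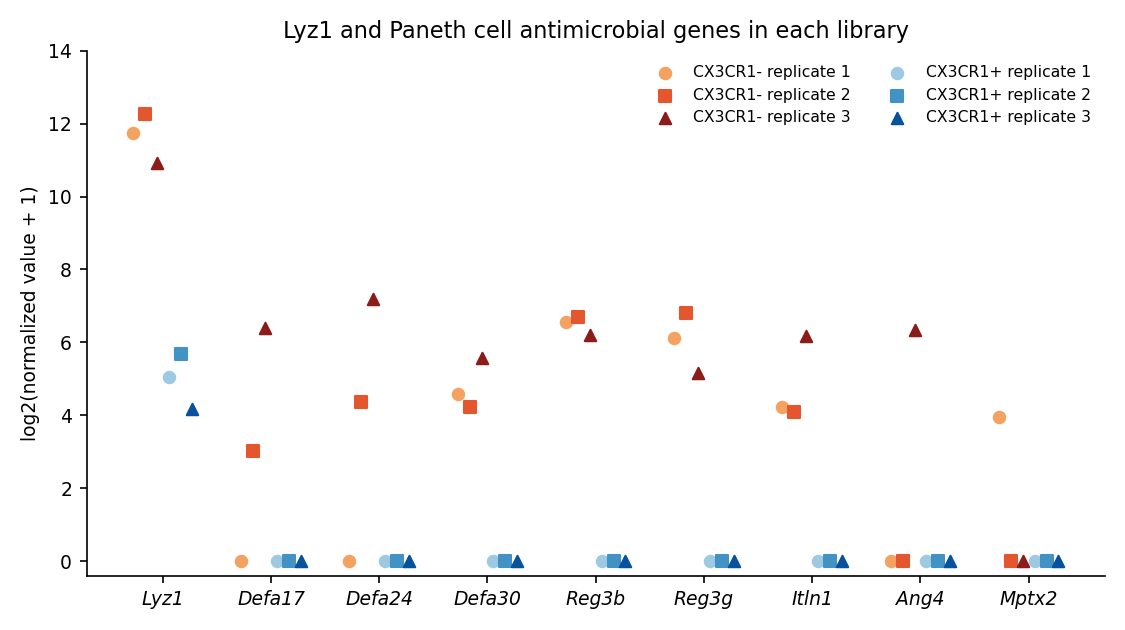
log2(normalized value + 1) of the 9 members in each library, with CX3CR1- libraries in red shades and CX3CR1+ libraries in blue shades. Apart from Lyz1, every member is at 0 in the 3 CX3CR1+ libraries, and the alpha-defensins, Itln1 and Ang4 are highest in CX3CR1- replicate 3.

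Alpha-defensins are small cationic peptides that Paneth cells release into the crypt lumen and that damage bacterial membranes. Their genes form a cluster of near copies on chromosome 8 (GRCm38, first start 21025545, last end 21735471 for the 16 alpha-defensin symbols listed). The stretches below, 75 coding bases in exon 2 on the plus strand, show how alike the 3 members are in the part that encodes the mature peptide. They were chosen as the coding window within an exon that holds the most differences. Capitals mark the 7 positions at which they are not all equal. They lie at chr8:21735288-21735362 for Defa24, chr8:21656552-21656626 for Defa17 and chr8:21135414-21135488 for Defa30.
Defa24: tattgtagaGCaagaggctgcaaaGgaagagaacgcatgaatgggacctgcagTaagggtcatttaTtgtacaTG
Defa17: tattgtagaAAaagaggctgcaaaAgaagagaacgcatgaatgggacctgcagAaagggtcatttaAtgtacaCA
Defa30: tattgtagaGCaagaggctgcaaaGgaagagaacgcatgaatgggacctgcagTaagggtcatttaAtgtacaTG
Defa24 and Defa30 were identical at 98.6% of their 279 coding positions, Defa17 and Defa30 at 97.1%, and Defa24 and Defa17 at 95.7%. Of the 31-base words of their transcripts, 93.2% (Defa17), 57.1% (Defa24) and 70.4% (Defa30) occurred in other genes, and the median over the 16 symbols was 97.7%. How the signal was split between single alpha-defensin genes is therefore uncertain, and their sum is the safer value.

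Defa24 had normalized values of 0, 19.7 and 146 in CX3CR1- replicates 1 to 3, which correspond to about 0, 11 and 146 reads. Defa17 had 0, 7.15 and 83.8, or about 0, 4 and 84 reads. Both were carried by CX3CR1- replicate 3 and overlapped with the CX3CR1+ libraries at 0. Neither passed the test, with log2 differences of 3.86 ± 1.63 (adjusted p = 0.120) and 3.14 ± 1.61 (adjusted p = 0.193; SE, limma). Without CX3CR1- replicate 1, the library in which both were at 0, they passed it with adjusted p-values of 0.00520 and 0.0234 (limma).

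Defa30 was the one alpha-defensin called higher in CX3CR1- cells. It had values of 23.0, 17.9 and 46.9 in CX3CR1- replicates 1 to 3, from about 22, 10 and 47 reads, and 0 in every CX3CR1+ library. All CX3CR1- libraries were above the level of 3 reads, and the mean of 29.2 ± 15.5 (SD, n = 3) was at least 10.8-fold higher than the mean of the 3-read levels of the CX3CR1+ libraries. The log2 difference on the log2(value + 1) scale was 4.80 ± 0.84 (SE) with an adjusted p of 0.00229 (limma), and this size depends on the pseudocount. Without CX3CR1- replicate 3 the gene fell under the filter on low values.

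Summed over the 16 alpha-defensin symbols, the values were 43.8, 107 and 1174 in CX3CR1- replicates 1 to 3 and 0 in all CX3CR1+ libraries. In reads the sum came to about 42, 60 and 1177, so 88.6% of the signal of the CX3CR1- libraries came from replicate 3. Of the 16 symbols, 14 were highest in CX3CR1- replicate 3 and 2, Defa3 and Defa37, in replicate 2. Fitted as 1 feature in place of the single genes, the sum was higher in CX3CR1- cells, with a log2 difference of 7.48 and an adjusted p of 0.000486 (limma). With 0 in all CX3CR1+ libraries, the sum passed the filter through the CX3CR1- libraries alone and could differ in this direction only. The size of 7.48 depends on the pseudocount.

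**Figure D3:**
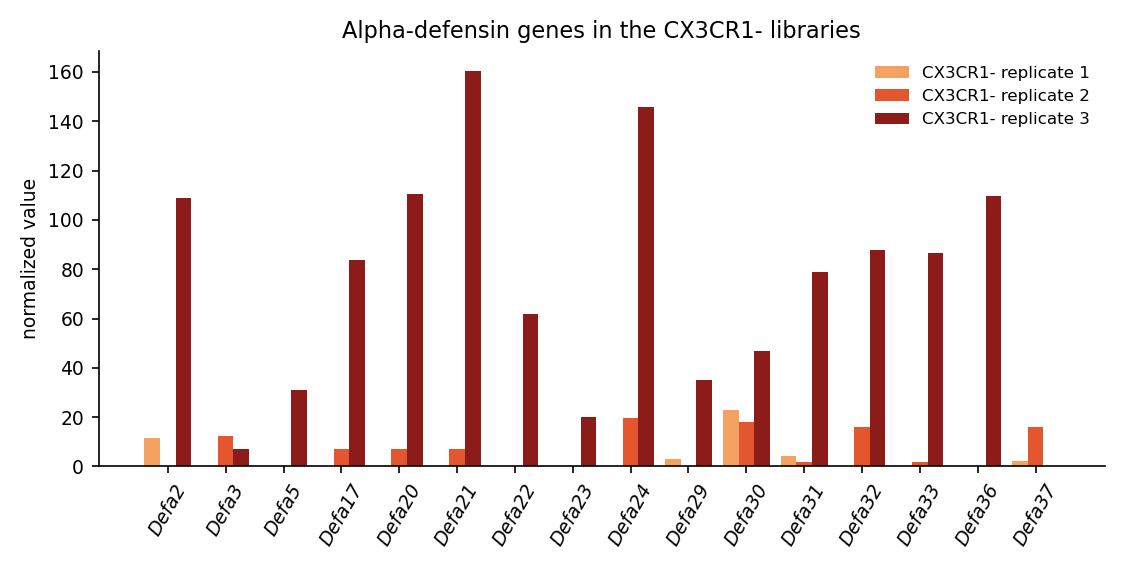
Normalized value of each of the 16 alpha-defensin symbols in the 3 CX3CR1- libraries (all were 0 in the CX3CR1+ libraries). The dark bars of CX3CR1- replicate 3 are the highest for 14 symbols, with Defa21 at 161 and Defa24 at 146, whereas replicates 1 and 2 stay at 23.0 or lower.

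Reg3b and Reg3g encode secreted C-type lectins that act on bacteria, and both are made by enterocytes as well as Paneth cells under IL-22 and microbial signals. Reg3b lies on chromosome 6 (GRCm38, 78370657 to 78373466, plus strand) and Reg3g on the same chromosome (78466269 to 78468872, minus strand). Their coding sequences were identical at 76% of the aligned positions and their transcripts shared 0.446% (Reg3b) and 0.231% (Reg3g) of their 31-base words, so these values can be assigned to each gene.

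Reg3b had values of 92.9, 103 and 73.3 in CX3CR1- replicates 1 to 3 and 0 in every CX3CR1+ library. Its mean was 89.9 ± 15.2 (SD, n = 3), the smallest SD relative to the mean among the members in CX3CR1- cells, and was at least 33.3-fold higher than the 3-read level of CX3CR1+ cells. The log2 difference was 6.49 ± 0.60 (SE; adjusted p = 4.27e-05, limma).

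Reg3g had values of 68.2, 112 and 35.1 in CX3CR1- replicates 1 to 3, again with 0 in every CX3CR1+ library. The mean of 71.6 ± 38.4 (SD, n = 3) was at least 26.5-fold higher than the 3-read level, with a log2 difference of 6.03 ± 0.71 (SE; adjusted p = 0.000194, limma). In both Reg3 genes CX3CR1- replicate 2 was the highest and replicate 3 the lowest library, the order of Lyz1, whereas most alpha-defensins were highest in replicate 3. Of the other Reg genes, Reg1 was also higher in CX3CR1- cells, with 156, 512 and 211 against 1.27, 21.3 and 1.30 (adjusted p = 0.000715, limma). Reg2 was tested and not called, with 85.6, 131 and 104 against 67.1, 75.5 and 86.4. Reg3a had 20.9, 12.5 and 23.9 in CX3CR1- cells and 0 in CX3CR1+ cells, under the filter, and Reg4 stayed at 12.0 or lower.

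The IL-22 receptor chain Il22ra1, an epithelial gene, was higher in CX3CR1- cells, at 29.2, 39.3 and 6.98 against 0.925, 0 and 1.42 (log2 difference 3.68, adjusted p = 0.0147, limma). It was the one gene of 8 tested in a list of upstream signals of Reg3 and Ang4 that was higher there. Of all tested genes, 12.2% were called higher. Il10rb, the receptor chain shared with IL-10, was lower, and the other 6, among them Stat3 and Myd88, were not called.

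Itln1 encodes intelectin, a lectin for microbial sugars that goblet and Paneth cells secrete. It lies on chromosome 1 (GRCm38, 171518122 to 171535294, minus strand). Its values were 17.7, 16.1 and 71.8 in CX3CR1- replicates 1 to 3 and 0 in CX3CR1+ cells. CX3CR1- replicate 3 was 4.46 times as high as the lowest CX3CR1- library. The mean of 35.2 ± 31.7 (SD, n = 3) was at least 13.0-fold higher than the 3-read level of CX3CR1+ cells, with a log2 difference of 4.84 ± 0.91 (SE; adjusted p = 0.00328, limma), and without CX3CR1- replicate 3 the gene fell under the filter.

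Ang4, an antimicrobial ribonuclease of the angiogenin family that Paneth cells store, was measured in 1 library. It had 79.8 in CX3CR1- replicate 3, about 80 reads, and 0 in the other 5 libraries. The log2 difference of 2.11 ± 1.89 (SE) did not pass the test (adjusted p = 0.470, limma). Ang4 lies on chromosome 14 (GRCm38, 51763878 to 51773590, minus strand). Its relative Ang, which is expressed in many tissues, went the other way, with 13.4, 28.3 and 56.6 in CX3CR1- cells against 225, 281 and 233 in CX3CR1+ cells (log2 difference -3.09, adjusted p = 0.000701, limma).

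Mptx2, a mucosal pentraxin found in Paneth cells, had 14.6 in CX3CR1- replicate 1, about 14 reads, and 0 in the other 5 libraries. Its mean lay under the filter and it was not tested. It was the one member whose highest library was CX3CR1- replicate 1. Mptx2 lies on chromosome 1 (GRCm38, 173274382 to 173277777, minus strand) and shares 25.1% of its 31-base words with Mptx1.

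Pla2g2a, the secreted phospholipase A2 of Paneth cell granules, carries a disrupted allele in C57BL/6 mice and is annotated as a polymorphic pseudogene in GRCm38. Of the 11 genes listed for its family, 8 were in the table and 3 were tested. Pla2g1b, a pancreatic enzyme, was higher in CX3CR1- cells, with 24.0, 194 and 94.9 against 0, 12.8 and 0 (adjusted p = 0.00731, limma). Pla2g2d, known from antigen-presenting cells, was also higher, with 87.7, 152 and 181 against 71.7, 69.7 and 49.6 (adjusted p = 0.0384, limma).

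A list of 34 further Paneth cell genes gave few calls. Of these, 19 were in the table and 11 were tested. Clps, Pnliprp2 and Nupr1 were called higher, beside 12.2% of all tested genes, 8 were not called and none was lower. Of the 11, 5 (Defa20, Defa21, Defa22, Defa31 and Defa36) were at 0 in every CX3CR1+ library and passed the filter through CX3CR1- replicate 3. Clps, pancreatic colipase, had 121, 1109 and 796 in CX3CR1- cells and 0, 78.7 and 1.42 in CX3CR1+ cells (adjusted p = 0.00787, limma). Pnliprp2, a lipase related to pancreatic lipase, had 4.17, 172 and 69.8 against 0, 5.74 and 0 (adjusted p = 0.0305, limma). Nupr1, a stress-induced chromatin protein, had 41.8, 52.2 and 38.6 against 18.6, 24.2 and 12.5 (adjusted p = 0.0468, limma). The first 2 are made in bulk by the exocrine pancreas, and like its genes they were highest in CX3CR1- replicate 2 and, among the CX3CR1+ libraries, in replicate 2. A list of 10 exocrine pancreas genes, chosen after values were seen, was highest in CX3CR1- replicate 2 for all 10, its sum running from 2385 to 29250 in the CX3CR1- and from 28.2 to 1976 in the CX3CR1+ libraries. The count of 3 fell to 1, Clps, without CX3CR1- replicate 3 and also without CX3CR1+ replicate 1 or replicate 3. Transcription factors of the secretory lineage were low or did not pass the test, with Spdef at 4.72 to 9.65 in CX3CR1- cells and 0 in CX3CR1+ cells, Sox9 at 10.7 to 36.9 against 2.46 to 9.92 (adjusted p = 0.0867, limma), and Xbp1 at 288 to 724 against 369 to 469 (adjusted p = 0.780, limma).

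Other epithelial genes were measured in the same CX3CR1- libraries. The share of all tested genes called higher in CX3CR1- cells was 12.2%. All 12 enterocyte genes were higher in CX3CR1- cells, with summed values of 19852 to 35887 against 93.5 to 137 in CX3CR1+ cells. All 8 tested goblet cell genes were higher, with sums of 2740 to 6930 against 13.1 to 28.2. All 7 tested general epithelial genes were higher, with sums of 1106 to 1365 against 7.99 to 22.6, and the adhesion molecule Epcam had 300, 247 and 283 against 0, 2.46 and 0. Of 6 tested antimicrobial genes of the epithelial surface, 5 were higher. The enterocyte and goblet lists were highest in CX3CR1- replicate 1 for most genes (10 of 12 and 5 of 8), and none of the enterocyte genes was highest in replicate 3. What part these transcripts had in the values of Lyz1 and the other members was not tested.

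Within the CX3CR1- libraries Lyz1 did not share the distribution of the alpha-defensins. CX3CR1- replicate 3 held 19.0% of the Lyz1 signal of the 3 libraries, compared with 88.6% of the summed alpha-defensins, 88.1% of Defa24, 92.1% of Defa17, 68.0% of Itln1 and 53.4% of Defa30. The value of Lyz1 divided by the alpha-defensin sum was 78.0, 45.9 and 1.66 in CX3CR1- replicates 1 to 3, a 46.9-fold range. With Reg3g the same ratio ran from 44.1 to 55.7, and with Reg3b from 26.6 to 47.6. Lyz1 was thus lowest in the library in which the alpha-defensins were highest, and its ratio to the Reg3 genes moved by 1.26 and 1.79 times over the 3 libraries.

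Fn1 and Ear2, the genes the study names beside Lyz1 as monocyte-macrophage genes, also had their highest value in CX3CR1- replicate 2 and their lowest in replicate 3. Fn1, fibronectin, had 10317, 15263 and 5930 in CX3CR1- cells and 235, 205 and 213 in CX3CR1+ cells (log2 difference 5.48, adjusted p = 2.69e-06, limma). Ear2, an eosinophil-associated ribonuclease also found in monocyte-derived cells, had 1561, 1820 and 849 against 31.5, 18.9 and 18.4 (log2 difference 5.85, adjusted p = 3.75e-06, limma), although 60.5% of its 31-base words occur in other genes. The ratio of Lyz1 to Fn1 was 0.331, 0.322 and 0.329 in CX3CR1- replicates 1 to 3, and that to Ear2 was 2.19, 2.70 and 2.30. The ratio to Ccr2, the chemokine receptor of recently recruited monocytes, was also steady at 1.77, 1.88 and 1.82, with Ccr2 at 1933, 2619 and 1071 in CX3CR1- cells and 704, 731 and 817 in CX3CR1+ cells. Among genes known from epithelium the spreads differed. The ratio of Lyz1 to Lgals2, a galectin of the gut epithelium, was 11.9, 12.5 and 12.3 and moved by 1.05 times. The ratio moved by 1.03 times for Fn1, 1.06 for Ccr2, 1.23 for Ear2 and 1.26 for Reg3g. Lgals2 was named for its nearness to Lyz1 over these same libraries, so its steady ratio follows from that choice. The ratio moved more for Fabp2 (1.51 times), Krt20 (2.07), Epcam (2.89) and Muc2 (2.94). These genes were picked from longer lists and do not stand for them. The goblet cell gene Agr2, for example, had 84.8, 108 and 48.0 in CX3CR1- replicates 1 to 3, the order of Lyz1. All these ratios rest on 3 libraries. They are a description without a test, and 17.1% of the 2177 genes called higher had the same order of CX3CR1- libraries as Lyz1.

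**Figure D4:**
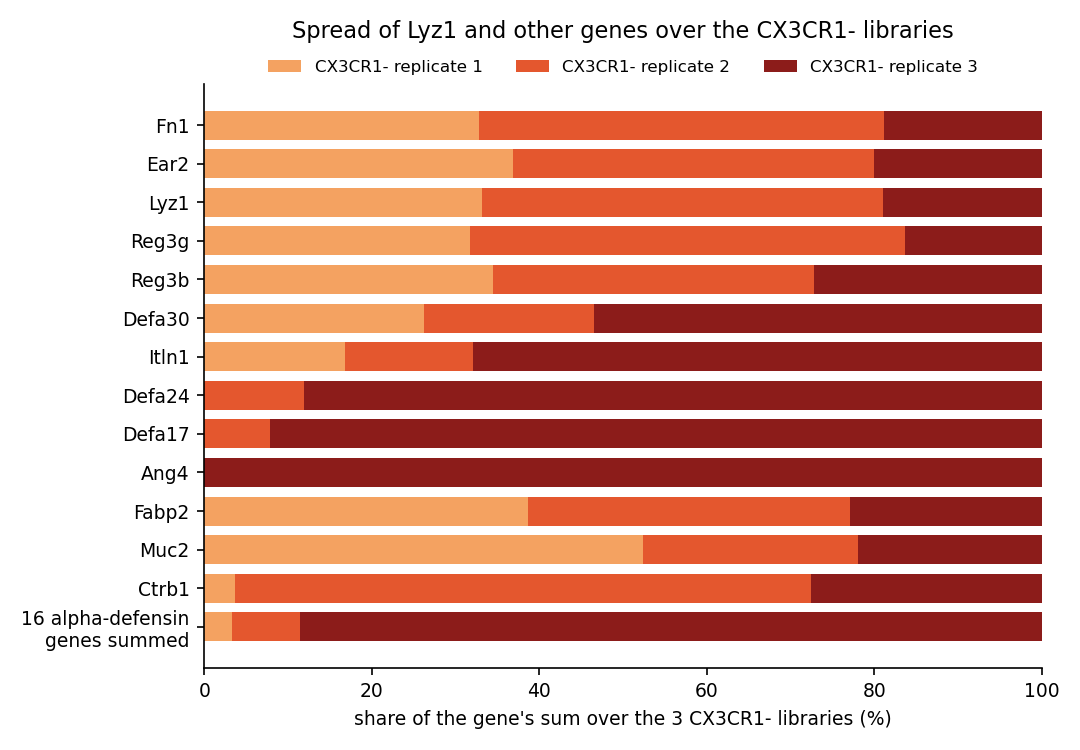
Share of each CX3CR1- library in the summed value of a gene over the 3 CX3CR1- libraries (%), for monocyte genes, Lyz1, the other tested members, an enterocyte gene (Fabp2), a goblet cell gene (Muc2), a pancreatic gene (Ctrb1, chosen after values were seen) and the summed alpha-defensins. Replicate 3 holds 18.8 to 20.1% of Fn1, Ear2 and Lyz1 and 88.6% of the alpha-defensins.

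The likeness of expression profiles was measured as the Euclidean distance of centred log2(value + 1) values from those of Lyz1. Over all 6 libraries the nearest of 17811 other genes were Naaladl1 (0.65), Otc (0.86), Enpp7 (1.13), Gm3776 (1.13) and Erich4 (1.15). Naaladl1, Otc and Enpp7 are known from enterocytes as a peptidase, a urea cycle enzyme and a sphingomyelinase. Reg3b stood at rank 9 (1.25) and Reg3g at rank 19 (1.35), followed by Ear2 at rank 33 (1.55) and Fn1 at rank 67 (1.84). The remaining tested members were farther off, with Defa30 at rank 282 (3.19), Itln1 at 366 (3.59), Defa24 at 2273 (6.72), Defa17 at 2450 (6.84) and Ang4 at 8453 (8.32). This distance is set mainly by the size of the difference between the populations, so genes of any cell type with a difference near that of Lyz1 come close to it.

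Over the 3 CX3CR1- libraries alone, the nearest of the 2176 other genes called higher were Fam3b (0.013), Fam110c (0.021), Fn1 (0.029), Ttll10 (0.046) and Lgals2 (0.051). Of these 5, Fn1 had the highest values, and the other 4 reached at most 395 (Lgals2). Reg3g stood at rank 43 (0.22), Ear2 at rank 46 (0.22), Fabp2 at rank 179 (0.46) and Reg3b at rank 316 (0.60), whereas Muc2 (rank 1046), Defa30 (rank 1789) and Itln1 (rank 2063) were farther away. The crypt gene Axin2 (rank 14, 0.12) and the goblet cell gene Agr2 (rank 22, 0.15) were nearer than Ear2. Among genes called higher, the median distance was 0.71 for the enterocyte list and 0.78 for recently recruited monocytes. It was 1.08 for goblet cells and for general epithelial genes, and 1.16 for all genes called higher. Genes known from monocytes and genes known from epithelium thus both lay among the near ones, and Defa30, the one alpha-defensin in this ranking, did not.

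Per kilobase of transcript, Lyz1 was the most abundant single member in every library. In CX3CR1- replicate 3, where the summed alpha-defensins, Itln1 and Ang4 were highest, it stood at 1546 per kilobase, compared with 347 for Defa24, 211 for Defa17, 118 for Defa30, 113 for Ang4, 93.6 for Reg3b, 62.9 for Itln1 and 45.5 for Reg3g. In CX3CR1- replicate 1 the next member after Lyz1 (2707 per kilobase) was Reg3b at 119, with Defa17, Defa24 and Ang4 at 0. Among the tested members other than Lyz1, the mean levels per kilobase in CX3CR1- cells ran from 131 for Defa24 down to 30.9 for Itln1. Between them came Reg3b, Reg3g, Defa17, Defa30 and Ang4, and neighbours in this order differed by less than the larger SD of the pair. Mptx2, which was not tested, had a mean of 6.13 per kilobase there.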

How the data were processed

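RNA was sequenced from 3 libraries of CX3CR1- and 3 of CX3CR1+ MHCIIhi cells, grouped by the sample titles. The authors pseudoaligned the reads with Kallisto to GENCODE vM16 transcripts (mm10), added up the transcript estimates of each gene and applied the normalization of DESeq2. What was deposited is therefore signal made comparable between libraries, not read counts, and near-identical genes share reads by estimation. Whole multiples of the smallest step made up 42.6 to 44.7% of the values above 0 (within 0.01 reads), so no count test was run. That step gave the approximate depth.

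Genes averaging 10 or more across all 6 libraries were tested in R 4.3.3 by limma 3.58.1, whose moderated variances followed an intensity trend, as a two-sided test of log2(value + 1), and p-values of the 17812 genes were adjusted by the Benjamini-Hochberg method. The test was checked on simulated data. Of 23 symbols listed more than once, the row with the highest mean was used. Positions, transcript lengths and sequences came from GENCODE vM21 (GRCm38). Named were the members, genes of fixed lists and the 5 genes nearest to Lyz1 in each of 2 distance rankings; Ear2 and the exocrine pancreas genes were added after their values were seen. The members and the lists were chosen with earlier results of these data known. Alternatives covered pseudocount, filter, scaling, trend, weights, summed alpha-defensins, each left-out library and, added later, a block of adjacent library numbers. Plots were drawn with matplotlib 3.10.9.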

Additional observations from a re-analysis of the deposited data

How the results depend on the processing

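The log2 difference of Lyz1 stayed between 6.29 and 7.04 under 16 alternatives, and the log2 ratio of Lyz1 to Lyz2 was 6.84 to 7.25 with other pseudocounts. Without 1 library each, Lyz1 ranged from 6.29 to 7.04, the ratio from 6.93 to 7.49, the members called higher from 3 to 7 and the other Paneth cell genes called higher from 1 to 4. With a mean of at least 50 required, 1 member of 1 tested and 1 other Paneth cell gene of 2 tested were called. Quantile normalization left 1 other Paneth cell gene called, and the cause was not tested. Summing the alpha-defensins into 1 feature gave 7.48, compared with a median of 3.86 for the 3 members, of which 1 was called. Both sizes depend on the pseudocount, because every alpha-defensin was at 0 in CX3CR1+ cells. Of the single members, Reg3b and Reg3g kept their call under all 15 alternatives that could be fitted and Defa30 and Itln1 under all 14. Ang4 was not called under any of its 14. Defa17 and Defa24 were called under 1 of 14, without CX3CR1- replicate 1. Lyz2 was not called under any of 16, since its log2 difference stayed between -0.84 and -0.35. Its adjusted p ran from 0.000980 to 0.236 (limma), so whether it passed on p alone depended on the setting. The labels give no pairing, but the library numbers form 3 adjacent pairs with 1 library of each population. Across genes, the deviations from the group means correlated at 0.104, 0.0380 and 0.0142 within these pairs, so the numbers were not taken to pair the samples. With the pairs as a replicate block, chosen after seeing the data, 5 members and 2 other Paneth cell genes (Clps and Pnliprp2) were called higher. Most alpha-defensins and Ang4 had listed values of 0 in CX3CR1- replicate 1, replicate 2 or both. CX3CR1- replicates 1 to 3 held about 11927366, 6517536 and 11331834 reads, so replicate 2 was shallower than replicate 3 and replicate 1 was not. A listed 0 means only that no read was assigned at that depth, and why the replicates differ was not tested.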
